A study of Mus musculus with 10 samples.

Results

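Aminoacyl-tRNA synthetases load each transfer RNA with its amino acid, and mouse cells keep separate sets of these enzymes for the cytosol and for mitochondria. The genes described are 36 synthetases chosen by symbol, 20 that serve the cytosol and 16 that serve mitochondria and whose symbols end in 2. All 36 were found among the 48709 gene identifiers of the count tables, and all 36 passed the filter on low counts that left 15660 genes for testing. Lars2, the mitochondrial leucyl enzyme, is described apart because its counts may hold ribosomal RNA reads, which leaves 15 genes in the mitochondrial set.

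Nearly all synthetases are encoded in the nucleus by one gene for each compartment, but Gars and Kars give rise to both the cytosolic and the mitochondrial enzyme. Several cytosolic enzymes are bound together in a multisynthetase complex held by scaffold proteins, and the rest, outside this complex, are here called free. Cytosolic synthetases are known from mouse fibroblasts as targets of ATF4, a transcription factor that is made when the kinase PERK phosphorylates the initiation factor eIF2 under stress of the endoplasmic reticulum. ATF4 binds, with C/EBP partners, to composite elements of the form TGATGNAAN.

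RNA was sequenced from 6 libraries of hippocampal neuron cultures given tunicamycin at 2 ug/mL and from 4 libraries of such cultures given the solvent DMSO, each for 6 h. Tunicamycin inhibits the enzyme that starts N-linked glycosylation, and unglycosylated proteins then misfold in the endoplasmic reticulum. All cultures were mouse primary cells from the hippocampus on day 10 in vitro, and no genotype, strain or animal age is given in the sources used here. Libraries held 21055289 to 29234887 counts, and nothing in the labels shows that replicates are separate cultures or animals, so p-values speak only of library-to-library spread, technical spread possibly included. All 6 neuronal markers examined were present, but astrocyte markers were present as well. The 6 astrocyte markers summed to 1918 to 2139 CPM (counts per 1e6 counts of the library) in tunicamycin libraries and 2711 to 3054 CPM in DMSO libraries, and all 6 were called lower with tunicamycin. The 6 neuronal markers summed to 3994 to 4231 CPM in tunicamycin libraries and 4720 to 5145 CPM in DMSO libraries, and 5 were called lower. Of all genes tested, 32.5% were called lower (edgeR adjusted p under 0.05). Microglial markers (5.45 to 7.73 CPM with tunicamycin, 9.80 to 13.7 CPM with DMSO), markers of oligodendrocyte precursors (86.2 to 110 CPM with tunicamycin, 145 to 199 CPM with DMSO) and of proliferating cells (40.7 to 50.9 CPM with tunicamycin, 70.9 to 88.2 CPM with DMSO) were detected too, and no listed marker was at 0. Called lower were 5 of 6 microglial markers, 3 of 4 precursor markers and 4 of 4 markers of proliferating cells. The part of these shifts in the results below was not tested, and in bulk RNA fewer cells of a type and less RNA per cell cannot be told apart.

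The element was searched in promoter windows of RefSeq (GRCm38.p6, 250 bases before to 50 after the gene's start) on both strands. Windows were matched for 13 of the 20 cytosolic and 14 of the 16 mitochondrial genes. Those of Cars, Hars, Lars, Nars, Rars, Vars, Wars, Hars2 and Pars2 were not used here. TGATGNAAN was found in a window of 5 of these 13 cytosolic genes (38.5%), of none of the 14 mitochondrial genes and of 4.5% of 27025 genes with a window. The stricter form TGATGCAAT, which is contained in the first, was found in the windows of Aars and Iars, 2 of 13 (15.4%), in those of none of the 14 mitochondrial genes and of 0.222% of the 27025 genes. The 5 cytosolic windows with a match are shown because they belong to 5 of the genes that were higher with tunicamycin. Capitals mark each match, and where the match lies on the opposite strand the letters read as its reverse complement.
Iars: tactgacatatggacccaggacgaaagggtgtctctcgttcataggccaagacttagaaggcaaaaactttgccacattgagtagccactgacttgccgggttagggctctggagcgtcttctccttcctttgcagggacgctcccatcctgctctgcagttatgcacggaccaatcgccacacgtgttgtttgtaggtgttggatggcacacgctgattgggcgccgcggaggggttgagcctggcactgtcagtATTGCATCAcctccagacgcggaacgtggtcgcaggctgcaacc
Tars: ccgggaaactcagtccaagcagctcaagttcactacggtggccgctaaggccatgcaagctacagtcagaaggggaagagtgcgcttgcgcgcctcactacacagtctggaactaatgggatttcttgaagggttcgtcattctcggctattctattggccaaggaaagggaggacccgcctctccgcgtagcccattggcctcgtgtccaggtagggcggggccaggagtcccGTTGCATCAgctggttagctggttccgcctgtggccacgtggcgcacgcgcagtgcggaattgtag
Aars: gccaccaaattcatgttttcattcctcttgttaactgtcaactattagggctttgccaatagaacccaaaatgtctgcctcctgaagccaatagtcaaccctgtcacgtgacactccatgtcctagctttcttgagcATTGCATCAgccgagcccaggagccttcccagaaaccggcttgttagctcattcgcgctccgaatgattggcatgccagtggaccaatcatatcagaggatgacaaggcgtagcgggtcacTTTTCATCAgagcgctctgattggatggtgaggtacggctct
Gars: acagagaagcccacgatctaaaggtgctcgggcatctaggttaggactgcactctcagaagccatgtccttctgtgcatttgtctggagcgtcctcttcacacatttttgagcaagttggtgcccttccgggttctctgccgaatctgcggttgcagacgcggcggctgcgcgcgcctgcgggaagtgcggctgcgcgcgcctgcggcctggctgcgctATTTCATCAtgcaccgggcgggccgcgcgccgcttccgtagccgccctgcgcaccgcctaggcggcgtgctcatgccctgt
Yars: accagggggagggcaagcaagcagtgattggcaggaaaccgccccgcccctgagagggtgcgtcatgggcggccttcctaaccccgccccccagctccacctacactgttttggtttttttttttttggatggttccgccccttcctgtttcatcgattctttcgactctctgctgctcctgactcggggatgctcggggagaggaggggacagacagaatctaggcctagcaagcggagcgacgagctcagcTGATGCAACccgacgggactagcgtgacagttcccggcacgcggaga
In the order shown, the windows lie at chr13:49681880-49682179, chr15:11399609-11399908, chr8:111033592-111033891, chr6:55037751-55038050 and chr4:129189653-129189952, that of Tars on the minus strand and the others on the plus strand. The match began 6 bases after the RefSeq start in Iars, 16 bases before it in Tars, 31 before it in Gars and 3 after it in Yars. Aars had 2 matches, 113 before and 8 after. The whole Aars window lies after the gene start given below, 111033144, which comes from another annotation. Log2 fold changes, tunicamycin over DMSO, were 1.39 for Iars, 1.27 for Tars, 0.93 for Aars, 0.83 for Gars and 0.57 for Yars. In the other cytosolic genes with a window they ran between -0.16 for Qars and 0.97 for Eprs, so genes without a match were also among the higher ones. A match is a description of letters, and binding was not measured.

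Most cytosolic genes were higher with tunicamycin, Iars, Tars and Cars most of all, and changes in the mitochondrial set were smaller in the median. Of 20 cytosolic genes, edgeR's quasi-likelihood test called 17 higher (background 31.8% of all genes tested), 1 lower (background 32.5%) and 2 neither way, at a Benjamini-Hochberg adjusted p under 0.05. Their median log2 fold change was 0.62, or 1.53-fold, beside -0.018 for all genes. Of 15 mitochondrial genes, 10 were called higher, 2 lower and 3 neither way, with a median of 0.16. Since 64.3% of all genes were called one way or the other, a call alone says little here, and the sizes differ more than the counts. A call of higher with a log2 fold change of at least 0.5 was made for 12 of 20 cytosolic genes and 2 of 15 mitochondrial genes, against 11.8% of all genes.
The smaller changes depended on scaling. Under upper-quartile scaling, which moved the median of all genes by -0.115, the cytosolic genes split into 16 higher and 2 lower, and the mitochondrial genes into 4 higher and 5 lower. Of all 15660 genes tested, that scaling called 3632 higher and 6934 lower. Measured from the median of all genes, the cytosolic median was 0.63 and the mitochondrial median 0.18 under both scalings. In sequencing lanes 1, 2 and 3 alone, as the deposited file names give them, the cytosolic median was 0.63, 0.64 and 0.56, and the mitochondrial median 0.11, 0.23 and 0.16.

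**Figure D1:**
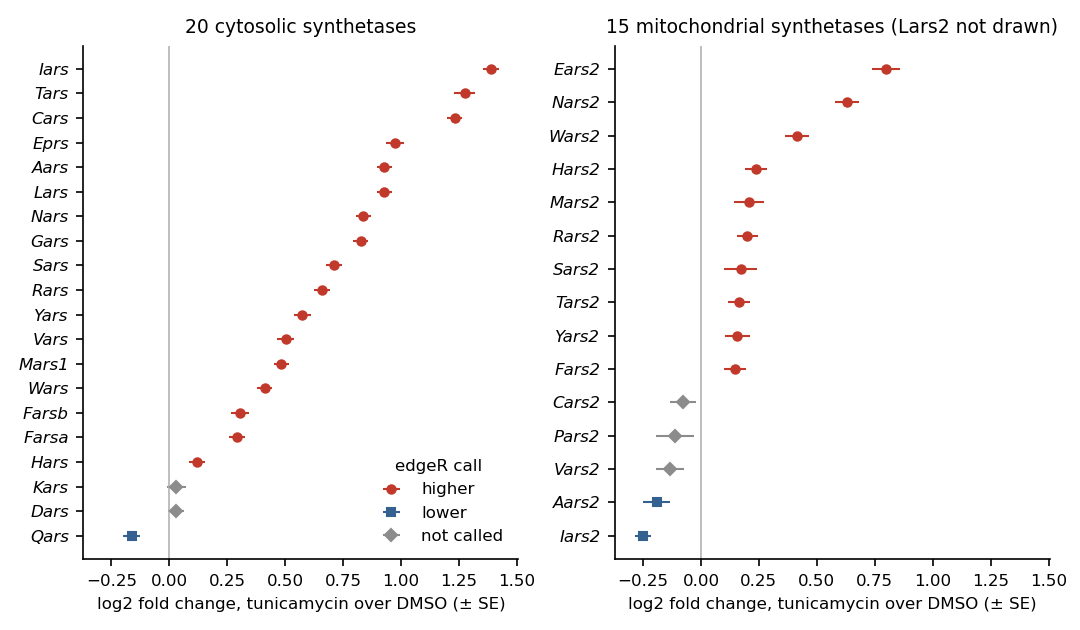
Log2 fold change (tunicamycin over DMSO, x axis, ± SE) of each gene (y axis), with 20 cytosolic genes on the left and 15 mitochondrial genes on the right; colour and shape give the edgeR call. The cytosolic points reach 1.39 for Iars, and the mitochondrial points lie between -0.25 for Iars2 and 0.80 for Ears2.

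The libraries of both groups stood fully apart for most cytosolic genes. In 16 of 20 all tunicamycin libraries lay above all DMSO libraries in CPM (background 27.0% of genes), in Qars they lay below (background 23.9%), and Dars, Hars and Kars overlapped. In the mitochondrial set 4 genes lay above without overlap (Ears2, Hars2, Nars2 and Wars2), Iars2 lay below, and 10 overlapped.

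Iars, the isoleucyl enzyme and a member of the complex, had the largest change of the 36 apart from Lars2 (ENSMUSG00000037851, chromosome 13, 49682100 to 49734267, GRCm38). It had 287, 293 and 309 CPM as the lowest, median and highest of the tunicamycin libraries, against 111, 108, 114 and 117 CPM in the DMSO libraries. Even the lowest tunicamycin library was far above the highest DMSO library. The log2 fold change was 1.39 ± 0.03 (SE, adjusted p by edgeR = 7.06e-19), or 2.61-fold, and 7.15% of the gene's 50-base words also occur in transcripts of other genes.
Tars, the threonyl enzyme (ENSMUSG00000022241, chromosome 15, 11382301 to 11399665), had 184, 203 and 210 CPM as lowest, median and highest with tunicamycin, against 84.6, 75.2, 84.0 and 85.9 CPM with DMSO. Its log2 fold change was 1.27 ± 0.04 (SE, adjusted p by edgeR = 1.08e-15), or 2.42-fold. Cars, the cysteinyl enzyme (ENSMUSG00000010755, chromosome 7, 143557230 to 143600090), had 217, 223 and 228 CPM with tunicamycin, against 101, 90.6, 93.2 and 93.4 CPM with DMSO. Its log2 fold change was 1.23 ± 0.03 (SE, adjusted p by edgeR = 3.84e-18), or 2.35-fold. Iars, Tars and Cars alone among the 36 were called at 2-fold or more higher.

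Eprs encodes one protein with both the glutamyl and the prolyl activity (ENSMUSG00000026615, chromosome 1, 185363044 to 185428360). It had 503, 532 and 563 CPM as lowest, median and highest with tunicamycin, against 265, 261, 268 and 287 CPM with DMSO, a log2 fold change of 0.97 ± 0.04 (SE, adjusted p by edgeR = 1.44e-15). Aars, the alanyl enzyme (ENSMUSG00000031960, chromosome 8, 111033144 to 111057664), had the highest CPM of the cytosolic set, with 646, 674 and 696 CPM in tunicamycin libraries against 353, 341, 367 and 348 CPM in DMSO libraries. Its log2 fold change was 0.93 ± 0.03 (SE, adjusted p by edgeR = 1.58e-16). In Aars 15.1% of exonic bases overlap either Exosc6 or Gm24103. Lars, the leucyl enzyme, which also acts as a leucine sensor for mTORC1 (ENSMUSG00000024493, chromosome 18, 42202298 to 42262194), had 229, 232 and 245 CPM with tunicamycin, against 129, 118, 120 and 124 CPM with DMSO. Its log2 fold change was likewise 0.93 ± 0.03 (SE, adjusted p by edgeR = 6.03e-16), and neither gene's groups overlapped.

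**Figure D2:**
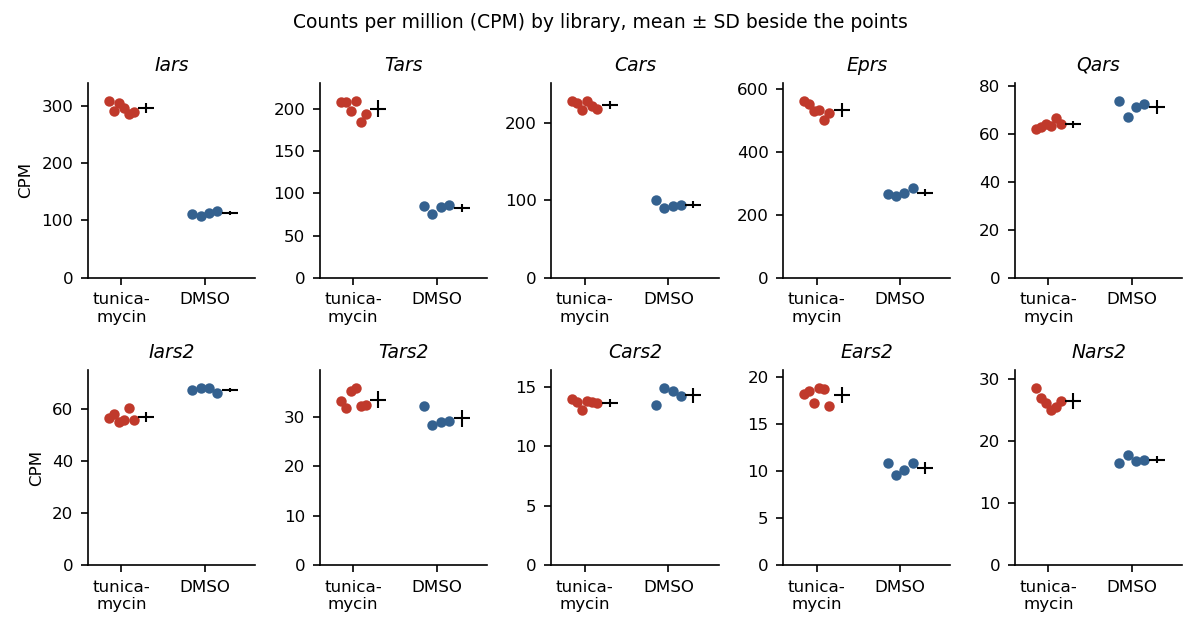
CPM (y axis, from 0) of 5 cytosolic genes above and 5 mitochondrial genes below, each point a library (tunicamycin, n = 6; DMSO, n = 4), with mean ± SD beside the points. Iars, Tars, Cars, Eprs, Ears2 and Nars2 are above in every tunicamycin library, Qars and Iars2 are below, and Tars2 and Cars2 overlap.

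The rest of the cytosolic set covered a wide range. Nars (asparaginyl) and Gars (glycyl) were higher by log2 0.84 and 0.83, Sars (seryl) by 0.71, Rars (arginyl) by 0.66, Yars (tyrosyl) by 0.57, Vars (valyl) by 0.50, Mars1 (methionyl) by 0.48 and Wars (tryptophanyl) by 0.41, all without overlap between the groups. The phenylalanyl enzyme is built from both Farsa and Farsb, and these subunits were higher by nearly the same amount, 0.29 ± 0.03 and 0.31 ± 0.04 (SE). Hars (histidyl) was called higher at 0.12 ± 0.03 (SE, adjusted p by edgeR = 0.00445), with 169, 175 and 184 CPM as lowest, median and highest with tunicamycin against 173, 153, 159 and 157 CPM with DMSO. Those groups overlapped, and under upper-quartile scaling the log2 fold change of Hars was 0.0057 (edgeR adjusted p = 0.895).
Mars1 shares 1.99% of its exonic bases with Ddit3, the stress transcription factor CHOP, which averaged 264 ± 13.1 CPM with tunicamycin and 34.3 ± 1.57 CPM with DMSO (SD, n = 6 and 4). The library kit does not mark strand, so reads in the shared stretch cannot be told apart.

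Qars, Dars and Kars, 3 enzymes of the complex, were the exceptions. Qars, the glutaminyl enzyme (ENSMUSG00000032604, chromosome 9, 108507706 to 108515941), had 62.1, 63.7 and 66.8 CPM as lowest, median and highest with tunicamycin, against 73.8, 67.1, 71.3 and 72.6 CPM with DMSO. Every tunicamycin library was below every DMSO library, though by little, with a log2 fold change of -0.16 ± 0.04 (SE, adjusted p by edgeR = 0.000384). Dars, the aspartyl enzyme, had 102, 106 and 110 CPM with tunicamycin and 108, 101, 104 and 101 CPM with DMSO, a log2 fold change of 0.03 ± 0.03 (SE, adjusted p by edgeR = 0.478). Kars, the lysyl enzyme of both compartments, had 94.7, 103 and 108 CPM with tunicamycin and 108, 93.3, 103 and 94.8 CPM with DMSO, a log2 fold change of 0.03 ± 0.04 (SE, adjusted p by edgeR = 0.547). The other gene that serves both compartments, Gars, averaged 453 ± 12.2 CPM with tunicamycin and 254 ± 13 CPM with DMSO (SD, n = 6 and 4). Under upper-quartile scaling Dars was called lower, at -0.09 (edgeR adjusted p = 0.0238), and Kars was not called.

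The cytosolic genes were also counted by membership of the complex and by structural class, beside 31.8% of all genes called higher and 32.5% called lower. Of the 8 enzymes bound in the complex, 5 were called higher (Eprs, Iars, Lars, Mars1 and Rars), 1 lower and 2 neither way, with a median log2 change of 0.57 and a range from -0.16 to 1.39. All 12 free enzymes were called higher, with a median of 0.64 and a range from 0.12 to 1.27, where Hars lost its call under upper-quartile scaling. Of 9 enzymes with the class I fold 8 were called higher and 1 lower (median 0.57), and of 10 with the class II fold 8 were called higher and 2 neither way (median 0.51). Eprs holds both folds and was in neither list. Of the 3 scaffold proteins of the complex, Aimp1 was higher at 58.0 ± 1.75 CPM with tunicamycin and 43.1 ± 3.32 CPM with DMSO (SD, n = 6 and 4), a log2 fold change of 0.42 ± 0.04 (SE, adjusted p by edgeR = 2.26e-08). Aimp2 was called higher at 0.19 ± 0.06 (SE, adjusted p by edgeR = 0.00603), but 29.4% of its exonic bases overlap Eif2ak1 and its groups overlapped. Eef1e1 was not called (0.10 ± 0.05; edgeR adjusted p = 0.12), and under upper-quartile scaling Aimp1 alone of the 3 was called.

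In mitochondria, Ears2 and Nars2 stood out from the other enzymes in size. Ears2 charges mitochondrial tRNA for glutamate and also loads glutamate on the tRNA for glutamine (ENSMUSG00000030871, chromosome 7, 122037213 to 122067263). It had 16.9, 18.3 and 18.8 CPM as lowest, median and highest with tunicamycin, against 10.8, 9.58, 10.1 and 10.9 CPM with DMSO, a log2 fold change of 0.80 ± 0.06 (SE, adjusted p by edgeR = 1.53e-10). Nars2, the asparaginyl enzyme (ENSMUSG00000018995, chromosome 7, 96951505 to 97064758), had 25.0, 26.3 and 28.6 CPM with tunicamycin, against 16.4, 17.7, 16.8 and 17 CPM with DMSO, a log2 fold change of 0.63 ± 0.05 (SE, adjusted p by edgeR = 5.26e-10). Both lay apart from DMSO by several CPM in every library. Wars2, the tryptophanyl enzyme (ENSMUSG00000004233, chromosome 3, 99141068 to 99239186), followed with 22.0, 23.6 and 25.3 CPM with tunicamycin, against 17.1, 17.5, 17.5 and 18.1 CPM with DMSO, a log2 fold change of 0.42 ± 0.05 (SE, adjusted p by edgeR = 3.14e-07). Hars2 (histidyl) was higher by 0.24 ± 0.05 (SE, adjusted p by edgeR = 0.000158), with 26.7, 29.0 and 30.3 CPM with tunicamycin against 23.8, 23.8, 25.0 and 24.0 CPM with DMSO. Hars and Hars2 lie head to head and share 7.97% and 4.56% of their exonic bases, so some of their reads cannot be told apart.

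The 6 further calls of higher were small and overlapped between groups. They were Mars2 (methionyl, 0.21), Rars2 (arginyl, 0.20), Sars2 (seryl, 0.17), Tars2 (threonyl, 0.16), Yars2 (tyrosyl, 0.16) and Fars2 (phenylalanyl, 0.15), and under upper-quartile scaling all 6 lost their calls. Sars2 was also lost when any of 6 single libraries was left out (DMSO replicates 2, 3 and 4, tunicamycin replicates 2, 3 and 4), at adjusted p between 0.0635 and 0.0888. Fars2 was lost without DMSO replicate 2 (adjusted p = 0.0615), and 10.7% of its exonic bases overlap other genes. Cars2 (cysteinyl, -0.08), Pars2 (prolyl, -0.11) and Vars2 (valyl, -0.13) were not called, at edgeR adjusted p of 0.235, 0.252 and 0.0552. Under upper-quartile scaling these 3 were called lower, and Vars2 was also called lower when DMSO replicate 2 or 4, or tunicamycin replicate 3 or 5, was left out.

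Aars2 and Iars2 were lower with tunicamycin, while the cytosolic enzymes for the same amino acids, Aars and Iars, were among the highest. Iars2 (ENSMUSG00000026618, chromosome 1, 185284726 to 185329396) had 54.8, 56.3 and 60.3 CPM as lowest, median and highest with tunicamycin, against 67.3, 68.1, 67.9 and 66.1 CPM with DMSO. The groups did not overlap, and the log2 fold change was -0.25 ± 0.03 (SE, adjusted p by edgeR = 1.74e-06). The gene overlaps either Rab3gap2 or 2010103J01Rik in 24.2% of its exonic bases, and Rab3gap2 was higher with tunicamycin (log2 0.40). Aars2 (ENSMUSG00000023938, chromosome 17, 45506841 to 45520843) had 14.7, 15.3 and 16.8 CPM with tunicamycin, against 18.0, 16.6, 17.7 and 18.2 CPM with DMSO. Its log2 fold change was -0.19 ± 0.06 (SE, adjusted p by edgeR = 0.0056), with a slight overlap between groups.

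Within a library, the ratio of a cytosolic gene's count to that of its mitochondrial counterpart does not depend on how libraries are scaled. The log2 ratio was compared between groups for 16 pairs with a two-sided exact permutation test with all 210 assignments of libraries to groups, in which the smallest possible p is 0.00476. It was higher with tunicamycin in 14 of 16 pairs at a Benjamini-Hochberg adjusted p under 0.05 and lower in none, and 10 pairs had no overlap between groups. How often the ratio of other gene pairs differs was not tested, and 64.3% of all single genes were called one way or the other. The median difference over the pairs was 0.44. All 14 pairs called higher were also higher in each of the 3 lanes taken alone. For the 10 pairs without overlap this follows from the separation of the groups. Lanes 2 and 3 hold 1 DMSO library each. The pairs are not independent of each other, since Eprs and Fars2 each enter 2 of them.
The isoleucyl pair moved most. Iars/Iars2 averaged 2.38 ± 0.08 in tunicamycin libraries and 0.74 ± 0.06 in DMSO libraries (SD, n = 6 and 4), a difference of 1.64 ± 0.05 (SE; exact permutation p = 0.00476, adjusted p = 0.00762), which is a 3.11-fold change of the ratio. Within lanes 1, 2 and 3 the difference was 1.69, 1.70 and 1.49. Cars/Cars2 averaged 4.02 ± 0.02 with tunicamycin and 2.72 ± 0.13 with DMSO, a difference of 1.31. Aars/Aars2 averaged 5.44 ± 0.11 with tunicamycin and 4.32 ± 0.05 with DMSO (difference 1.12), Tars/Tars2 averaged 2.58 ± 0.08 with tunicamycin and 1.47 ± 0.08 with DMSO (difference 1.11), and Eprs/Pars2 averaged 6.17 ± 0.18 with tunicamycin and 5.08 ± 0.12 with DMSO (difference 1.09). On the linear scale the ratios of these 5 pairs were 2.13-fold to 3.11-fold higher.
Smaller differences without overlap were found for Vars/Vars2 (0.64), Sars/Sars2 (0.54), Rars/Rars2 (0.46), Yars/Yars2 (0.42) and Nars/Nars2 (0.21), each again at the smallest possible p. Eprs/Ears2 differed by 0.18 and Farsa/Fars2 by 0.15 (both exact permutation p = 0.0143, adjusted p = 0.019), with overlap. Mars1/Mars2 differed by 0.27 (exact permutation p = 0.0238) and Farsb/Fars2 by 0.16 (exact permutation p = 0.0286). These 4 pairs depended on single libraries. With p adjusted again over the 16 pairs after leaving out 1 library at a time, Mars1/Mars2 missed the threshold in 6 of 10 cases (highest adjusted p by the exact permutation test 0.0816) and Farsb/Fars2 in 4 (0.0732), while Eprs/Ears2 and Farsa/Fars2 each missed it in 2, without DMSO replicate 1 or 4 (both 0.0586). For Mars1/Mars2 these were tunicamycin replicates 3, 4, 5 and 6 and DMSO replicates 2 and 4, and for Farsb/Fars2 each of the 4 DMSO replicates. Between 10 and 14 pairs stayed past the threshold, and the 10 pairs without overlap did so in every case. Leaving out a library cannot undo the separation of those 10 pairs, so this adds no support for them. In the tryptophanyl pair both genes were higher together, and Wars/Wars2 averaged 2.96 ± 0.08 with tunicamycin and 2.96 ± 0.05 with DMSO, a difference of -0.0032 ± 0.04 (SE; exact permutation p = 0.938). Hars/Hars2 averaged 2.61 ± 0.09 with tunicamycin and 2.73 ± 0.09 with DMSO, a difference of -0.12 ± 0.06 (SE; exact permutation p = 0.0762), and without tunicamycin replicate 6 the adjusted p was 0.0317.

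**Figure D3:**
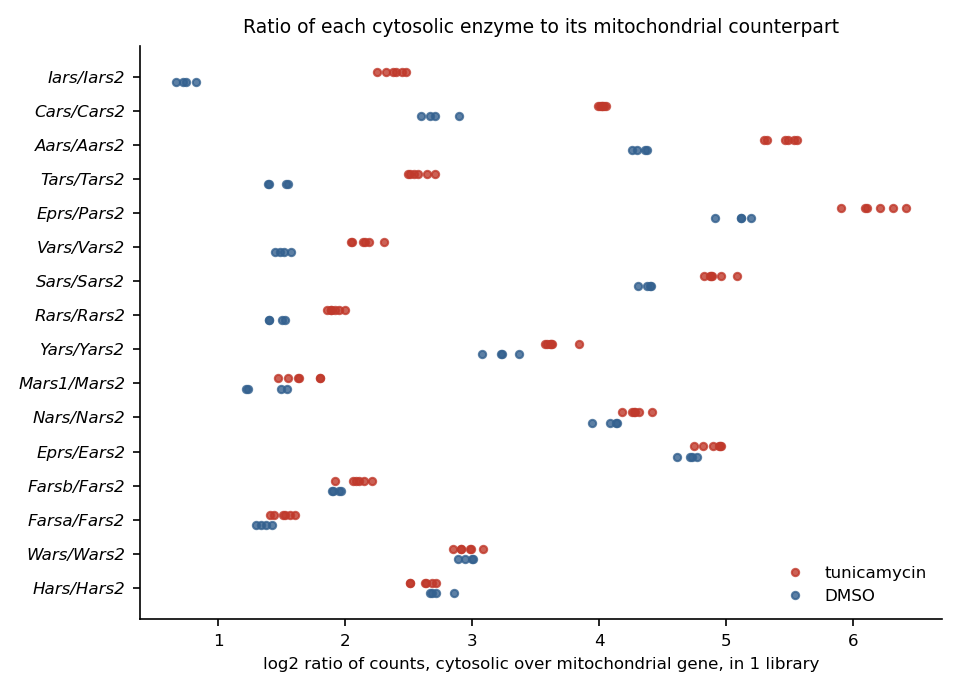
Log2 ratio of counts of a cytosolic gene over its mitochondrial counterpart (x axis) in each library, for 16 pairs (y axis) ordered by the difference between groups; each point is a library, with tunicamycin (n = 6) drawn above DMSO (n = 4). The groups stand apart from Iars/Iars2 at the top, with a difference of 1.64, and lie over each other at the foot for Wars/Wars2 and Hars/Hars2.

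Summed over the set, the 20 cytosolic genes took 4798 to 5041 CPM in tunicamycin libraries and 2802 to 3038 CPM in DMSO libraries. The 15 mitochondrial genes took 380 to 386 CPM in tunicamycin libraries and 348 to 356 CPM in DMSO libraries. The cytosolic sum was 12.4 to 13 times the mitochondrial sum with tunicamycin and 8.06 to 8.54 times with DMSO, without overlap. Per length, in CPM per kb of exon, the median level of the cytosolic genes was 43.5 with tunicamycin and 25.4 with DMSO, and that of the mitochondrial genes was 3.81 with tunicamycin and 3.69 with DMSO. The cytosolic levels ran from 10.7 for Vars to 81.4 for Gars in DMSO libraries, and the mitochondrial levels from 1.98 for Cars2 to 11.5 for Rars2, so that Vars and Qars lay below Rars2. With the length of the longest transcript in place of all exons, the DMSO medians were 44.5 and 5.26 for the cytosolic and the mitochondrial genes. By that length Vars, at 14.5, still lay below the highest mitochondrial level of 17.1, but Qars, at 23.2, lay above it. Iars, Tars and Cars, with the largest fold changes, had 21.4, 14.0 and 14.3 CPM per kb with DMSO, below the cytosolic median.

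**Figure D4:**
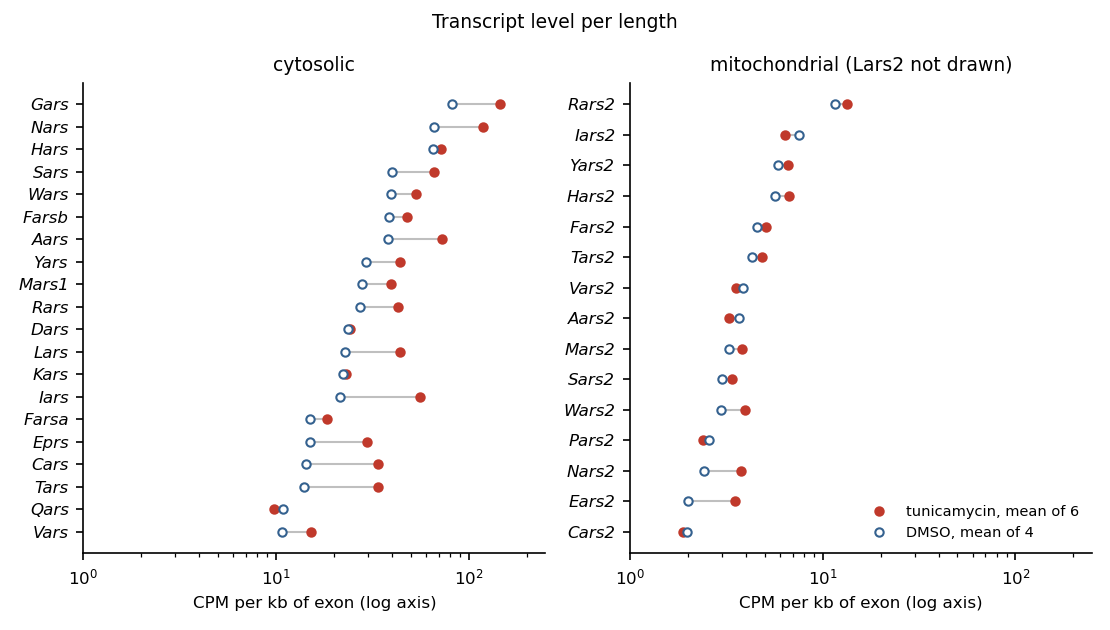
Mean level per length (CPM per kb of exon, log axis) of each gene with tunicamycin (filled, n = 6) and DMSO (open, n = 4), joined by a line; cytosolic genes on the left, mitochondrial genes on the right, each ordered by the DMSO level. The long lines of Iars, Tars, Cars and Eprs belong to genes in the lower part of the cytosolic order, and the mitochondrial points lie between 1.89 and 13.3. Per kb of longest transcript, Eprs had 47.9 with DMSO, above the cytosolic median of 44.5.

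Lars2, the mitochondrial leucyl enzyme, was lower with tunicamycin and varied widely between libraries (ENSMUSG00000035202, chromosome 9, 123366927 to 123462666). It had 99.4, 225 and 552 CPM as lowest, median and highest with tunicamycin, against 1289, 1797, 1766 and 2634 CPM with DMSO. All tunicamycin libraries were lower than all DMSO libraries, and the highest tunicamycin library had several times the CPM of the lowest. The log2 fold change was -2.83 ± 0.49 (SE, adjusted p by edgeR = 0.000866). In lanes 1, 2 and 3 alone it was -1.79, -3.16 and -4.15. Per length Lars2 had 169 CPM per kb with DMSO, above every other member, where the next mitochondrial gene, Rars2, had 11.5. With Lars2 as its partner, the log2 ratio of Lars averaged 0.07 ± 0.91 with tunicamycin and -3.88 ± 0.45 with DMSO (SD, n = 6 and 4).
By a rule that took the 5 genes whose log2 CPM correlated best with that of Lars2 over the 10 libraries, the most similar were Gm15564, Mir6236, Gm26917, Gm37899 and CT010467.1, of which CT010467.1 is annotated as ribosomal RNA. Pearson's r was 0.987 to 0.999 over all 10 libraries, which share the difference between groups, and 0.928 to 0.998 within the 6 tunicamycin libraries, given as a description. The CPM of Lars2 was 4.33 to 5.31 times that of Gm15564 in tunicamycin libraries and 4.24 to 4.64 times in DMSO libraries. Gm15564 itself varied 6.82-fold among the tunicamycin libraries. Gm15564, on chromosome 16, shares a run of 52 identical bases with the transcripts of Lars2, and the longest shared run of Mir6236, Gm26917 and CT010467.1 was 12 or 13 bases. Mir6236 averaged 53.1 ± 33.9 CPM with tunicamycin and 378 ± 107 CPM with DMSO (SD, n = 6 and 4), a log2 fold change of -2.84 ± 0.47 (SE, adjusted p by edgeR = 0.000663). Gm26917 averaged 57.8 ± 33.4 CPM with tunicamycin and 301 ± 78.9 CPM with DMSO, a log2 fold change of -2.39 ± 0.44 (SE, adjusted p by edgeR = 0.00122). The mitochondrial ribosomal RNAs mt-Rnr1 and mt-Rnr2 were not called, at 0.02 and -0.12. Whether the counts of Lars2 stem from its messenger RNA was not tested.

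**Figure D5:**
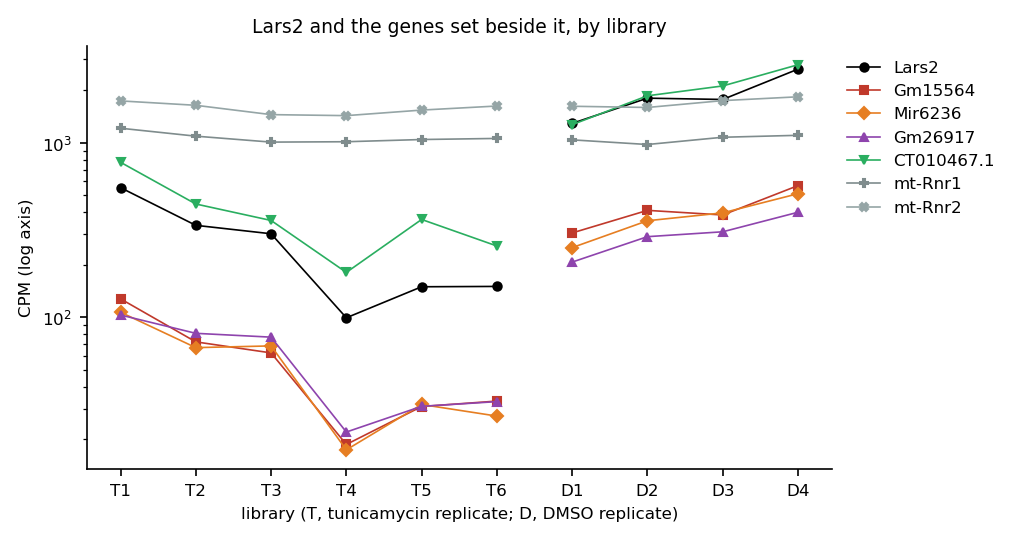
CPM (log axis) of Lars2, the 4 most abundant genes similar to it and the 2 mitochondrial ribosomal RNAs in each of the 6 tunicamycin libraries (T1 to T6, left) and the 4 DMSO libraries (D1 to D4, right); lines join the libraries of a group for reading only, since replicates have no order. Lars2 and the similar genes are lower with tunicamycin, highest in T1 and lowest in T4 among those libraries, with Lars2 between 99.4 and 552 CPM, while mt-Rnr1 and mt-Rnr2 were not called.

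Genes of the steps next to tRNA charging were examined as well. Of 6 cytosolic elongation factors, which bring charged tRNA to the ribosome and move it on, 4 were called lower (background 32.5%) and none higher (background 31.8%), with a median log2 fold change of -0.14. Eef1a2, the form typical of neurons and muscle, averaged 270 ± 8.71 CPM with tunicamycin and 312 ± 12.5 CPM with DMSO (SD, n = 6 and 4), a log2 fold change of -0.21 ± 0.03 (SE, adjusted p by edgeR = 8.39e-06). Eef1b2, a subunit of the exchange factor for it, averaged 140 ± 3.99 CPM with tunicamycin and 158 ± 3.62 CPM with DMSO (log2 -0.18; edgeR adjusted p = 2.54e-05). The other lower ones, Eef1a1 and Eef1g, share 40.4% and 44.2% of their 50-base words with transcripts of other genes and are uncertain. Under upper-quartile scaling 5 of the 6 were called lower, beside 6934 of all 15660 genes tested.
On the mitochondrial side, 4 of 7 translation factors were called higher (background 31.8%) and 1 lower (background 32.5%). Mtrf1l, which releases finished chains, averaged 8.94 ± 0.80 CPM with tunicamycin and 5.59 ± 0.29 CPM with DMSO (log2 0.67 ± 0.08, SE; edgeR adjusted p = 4.3e-07), and the initiation factor Mtif2 was higher by 0.24 (edgeR adjusted p = 1.39e-05). The lower one, Tufm (-0.20), shares 54.5% of its 50-base words with other genes. Of the 3 subunits of the amidotransferase that completes glutamine on the tRNA loaded by Ears2, Qrsl1 was called higher (0.16 ± 0.07, SE; edgeR adjusted p = 0.0326), and Gatb (-0.07) and Gatc (-0.02) were not called. The call of Qrsl1 was lost when any of 6 single libraries was left out (DMSO replicates 1, 3 and 4, tunicamycin replicates 2, 4 and 6), at adjusted p of 0.0586 to 0.0764. Of 8 genes that process or modify mitochondrial tRNA, 5 were called higher and 1 lower (Hsd17b10, -0.16), against the same background. Trmt10c, a subunit of mitochondrial RNase P, averaged 34.4 ± 2.48 CPM with tunicamycin and 19.1 ± 1.35 CPM with DMSO, a log2 fold change of 0.85 ± 0.06 (SE, adjusted p by edgeR = 5.45e-11). Trnt1, which adds the CCA end to tRNAs of both compartments, was higher by 0.46 ± 0.05 (SE, adjusted p by edgeR = 6.51e-07). Under upper-quartile scaling the translation factors split into 3 higher and 2 lower, the amidotransferase subunits into 0 higher and 2 lower (Gatb and Gatc), and the tRNA genes into 4 higher and 3 lower. That scaling called 3632 of all 15660 genes tested higher and 6934 lower.
Among 7 synthetase-like, editing and selenocysteine genes, 1 was called higher and 2 lower, no more than the background of 31.8% and 32.5%. Sepsecs, which makes selenocysteine on its tRNA, averaged 39.0 ± 1.39 CPM with tunicamycin and 24.4 ± 0.60 CPM with DMSO, a log2 fold change of 0.67 ± 0.04 (SE, adjusted p by edgeR = 1.26e-11). Dtd1, which removes D-amino acids from tRNA, was called lower at -0.11 ± 0.04 (SE, adjusted p by edgeR = 0.024), a call lost without DMSO replicate 1 (-0.07, adjusted p = 0.159) or tunicamycin replicate 2 (adjusted p = 0.0506). Pstk, the kinase of the step before Sepsecs, was called lower at -0.20. Tarsl2, a second threonyl synthetase, was not called, with 44.6 ± 1.83 CPM with tunicamycin and 43.4 ± 3.01 CPM with DMSO (SD, n = 6 and 4). Under upper-quartile scaling 1 of the 7 was called higher and 4 lower, beside 3632 higher and 6934 lower of all 15660 genes tested.

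In the authors' deposited tables of changed genes, 17 cytosolic genes are listed as higher and 1, Qars, as lower, against 29.7% and 30.4% of the genes tested here. The authors' deposited tables list 9 mitochondrial genes as higher and, with Lars2, 3 as lower, and Sars2 is not among them. For Iars the authors' deposited table gives a log2 fold change of 1.38, and for Lars2 it gives -2.84.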

How the data were processed

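Per the labels' protocols, RNA of cultured mouse hippocampal cells went through an unstranded TruSeq v2 kit and gave single-end reads of 50 bp. Per the submitters' processing notes, which assign no roles, the tools were DESeq2, Subread 1.5.1 with featureCounts, STAR 2.5.2b and FastQC 0.11.5, and the build was mm10. The authors deposited whole-number counts for 48709 genes per library, without normalization, and tables of changed genes with a log2 fold change, an adjusted p-value and a normalized signal per library. The signal was not used here. Which annotation and strand setting they counted with, and how multi-mapping reads were treated, is not given in the sources used here.

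Names and positions came from GENCODE M21 (GRCm38, of which mm10 is another name), which matched 48349 identifiers. The 360 others, with 0.0462% of all counts, were kept in library totals. Groups follow the agent in the labels. All genes were fitted together with edgeR 4.0.16 (R 4.3.3; quasi-likelihood F test, robust, TMM, filterByExpr), two-sided, with Benjamini-Hochberg adjustment over 15660 genes, and the text gives the rows of the members. SE values are the log2 change divided by the square root of F. Ratios of gene pairs were log2 of counts plus 0.5. Replicate libraries differed by more than sampling noise (chi-square over its degrees of freedom 2.18 to 10.5), so none was deposited again under another name. The code was tested on simulated counts.

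The members and lists were chosen with earlier results of these data known. The naming rule gives full statistics for the 6 cytosolic and 4 mitochondrial genes with the largest called changes, Lars2 among these, for genes called against the majority of their set, and for the 2 genes of smallest p in each related list. Hars, Dars, Kars, Hars2, Gars, Gatc, Pstk, Tarsl2 and others with values were added after their values were seen. Results of 1 gene under the rule are not reported here. Alternatives were other scalings, filters, DESeq2 1.42.0, library sizes without genes that may hold ribosomal RNA reads, lane as a term or each lane alone, a replicate block, and leaving out each library. The depth of 21055289 to 29234887 counts gave the least abundant member, Pars2, 6.46 to 8.80 CPM in every library.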

Additional observations from a re-analysis of the deposited data

Results flagged for a closer look

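In 4 of 72 groups of values (36 genes in tunicamycin and DMSO libraries) 1 library stood apart from the rest by Dixon's criterion, where chance gives about 1 in 20, or 3.6. Farsb had 117 CPM in tunicamycin replicate 5, against a median of 126 CPM in the other tunicamycin libraries. Cars2 had 13.1 CPM in tunicamycin replicate 3, against 13.8 CPM, and Yars2 had 18.7 CPM in the same library, against 21.4 CPM. Hars2 had 25.0 CPM in DMSO replicate 3, against 23.8 CPM in the other DMSO libraries. None of these 4 genes crossed the threshold when that library was left out.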

How the results depend on the processing

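Across the alternatives tested, 24 of 36 members kept their side of the threshold, 18 cytosolic genes and 6 mitochondrial ones (Aars2, Ears2, Hars2, Iars2, Nars2 and Wars2). Under upper-quartile scaling the median log2 fold change was 0.50 for cytosolic genes, 0.050 for mitochondrial genes and -0.13 for all genes, with 2 cytosolic genes and 5 mitochondrial genes called lower and 4 mitochondrial genes called higher. It turned Dars to -0.087, and split all genes into 3632 higher and 6934 lower. In lane 2 alone the mitochondrial median was 0.23, that of all genes -0.0043 and Dtd1 0.039. In lane 3 alone the cytosolic median was 0.56 and Mars2 -0.033. The cause was not tested, and these lanes hold 1 DMSO library each. Leaving out each library in turn gave 17 cytosolic genes higher and 1 lower every time, with medians of 0.58 to 0.64. It gave 8 to 10 mitochondrial genes higher and 2 to 3 lower (medians 0.15 to 0.18), and 4796 to 4963 genes higher and 4726 to 4997 lower among all genes (medians -0.020 to -0.013). Library sizes without the genes that may hold ribosomal RNA reads changed no member's call.

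Same-numbered libraries did not deviate together (correlations of -0.217, 0.0085, -0.0616 and -0.0719 for numbers 1 to 4). These few values gave no sign that the numbers pair the samples, but they cannot exclude it. With the replicate number as a block, which leaves 8 libraries, 17 cytosolic genes were called higher and 1 lower, and 7 mitochondrial genes higher and 2 lower. Among all genes the block gave 4416 higher and 4398 lower. The same 8 libraries without the block, an alternative chosen after seeing the data, gave 7 mitochondrial genes higher and 3 lower. Among all genes they gave 4699 higher and 4758 lower. Lars2 missed the threshold under the block, at -2.69 (edgeR adjusted p = 0.0616), as did Mir6236 (-2.66, edgeR adjusted p = 0.0611) and Gm26917 (-2.17, edgeR adjusted p = 0.0719).

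The lowest level of a member was that of Pars2, at 6.46 CPM in a tunicamycin library, and how depth bears on the calls was not tested.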
